A study of Mus musculus with 6 samples.

Results

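The sirtuins and the genes that recycle or remove nicotinamide were followed in mouse liver: Sirt1 to Sirt7, Nampt, Nmnat1 and Nnmt. A gene was represented by its brightest probe set over all 6 arrays among probe sets that the platform annotation gives a single symbol. All 10 genes were measured, with 15 probe sets in all, out of 18193 genes and 34945 probe sets. The 10 lay above background on every array, background being 4.90, below which 95% of 38 olfactory receptor genes have their mean.

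The series holds livers of 10-week-old male mice, 3 labelled WT and 3 labelled L-Pex5 knockout (genotype L Pex5 -/-, called KO here), each run on an Affymetrix array of its own. Peroxisomes import their enzymes through the receptor that Pex5 encodes. The labels give both groups the same mixed background, Alb-Cre Tac:[Sw]fBR, and Alb-Cre is a recombinase under the albumin promoter, active in hepatocytes, so other liver cells should keep Pex5. Values are log2 levels made by RMA, differences are KO minus WT, ± after a mean is the SD over 3 livers, and ± after a difference is the SE of limma's fit. The series' design text speaks of biological replicates, no batch is named, and the number of arrays limits the precision. In pieces of whole liver, fewer cells of a type and less RNA per cell cannot be told apart.

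NAD carries electrons in metabolism and is also broken up by enzymes that use it as a substrate. Sirtuins are such enzymes: they remove acetyl and related groups from proteins and release nicotinamide. NAMPT turns nicotinamide into nicotinamide mononucleotide, NMNAT enzymes complete NAD, and NNMT instead methylates nicotinamide with a methyl group from S-adenosylmethionine, which takes it out of the cycle. The liver can also make NAD from tryptophan.

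The targeted transcript did not check the labels. Pex5, in its brightest probe set, averaged 9.04 ± 0.14 over WT livers and 9.22 ± 0.11 over KO livers (adjusted p = 0.262). The mean of the gene's probe sets differed by 0.16 (adjusted p = 0.309). Whether any of them covers the deleted part is not given in the sources used here. Pearson correlations over all 18193 genes, inside a group, ran from 0.989 to 0.996, and those between groups from 0.965 to 0.976. The 3′ to 5′ difference of the Actb control probe sets was 0.89 ± 0.05 in WT and 0.85 ± 0.04 in KO (exact permutation p = 0.5), and that of Gapdh 0.01 ± 0.02 and -0.08 ± 0.03 (exact permutation p = 0.1, the smallest possible).

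In KO livers Nnmt fell and Nampt and Nmnat1 did not pass the test, while among the sirtuins Sirt3 fell and the other 6 did not pass. A gene was called changed at an adjusted p under 0.05 (limma, Benjamini-Hochberg over 18193 genes). Of the 10 genes 0 were higher and 2 lower, against 24.0% of all genes called, 14.2% higher and 9.75% lower. The median difference was -0.06 over the 10 and -0.05 over all genes. At an unadjusted p under 0.05 there were 3 genes among the 10, Sirt6 being the one added. The share of all genes at that threshold was not counted, but it exceeds the 24.0% called after adjustment. The 3 are therefore not read as an excess. The KO arrays lay wholly to one side of the WT arrays in 4 of the 10, Nnmt, Sirt3, Sirt5 and Sirt6, a share near the 44.8% of all genes. The Nnmt difference was larger than that of 99.2% of all genes in absolute size, and for the other 9 members that share ran from 4.38% (Nmnat1) to 82.1% (Sirt3).

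**Figure D1:**
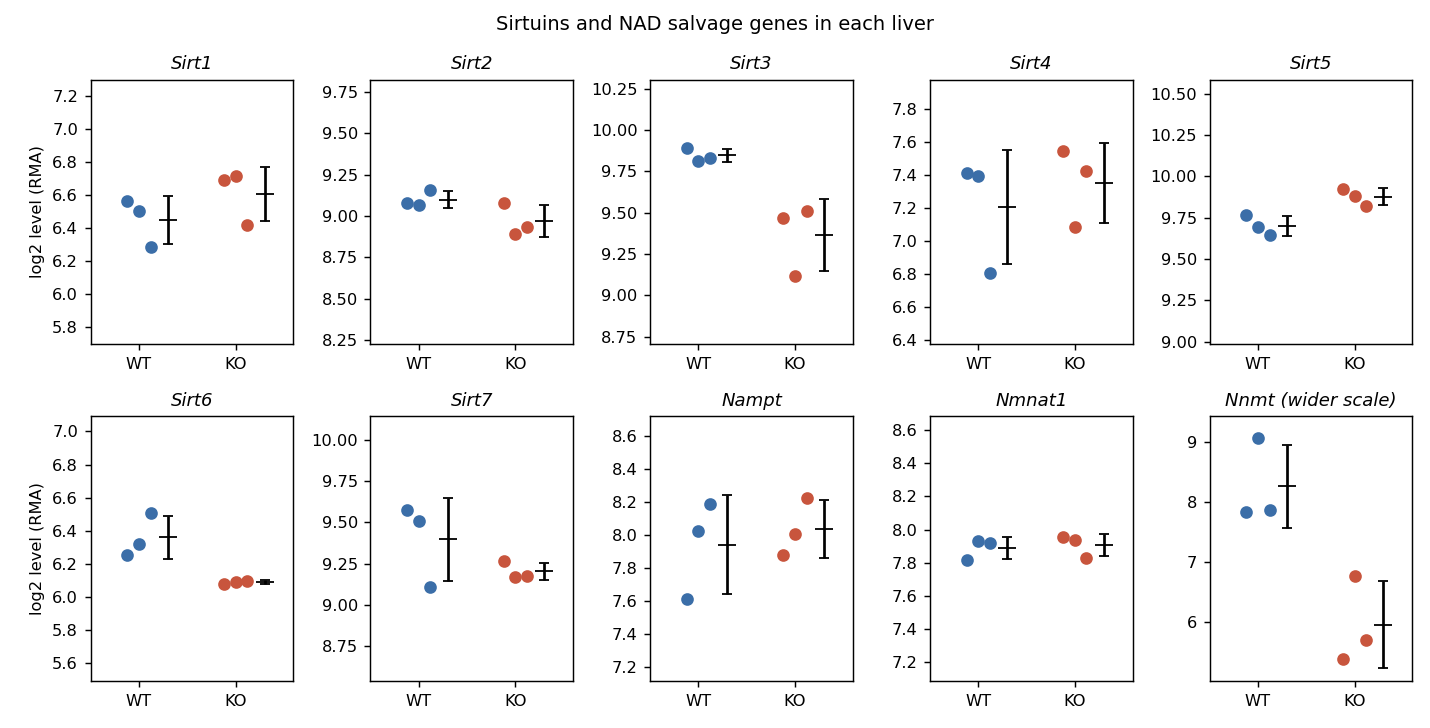
Log2 RMA level of each of the 10 genes in the 3 WT (blue) and 3 KO (red) livers; black marks are the mean and SD. Each panel has its own range of 1.6 log2 units except Nnmt, whose panel is wider. The KO livers lie below all WT livers for Sirt3, Sirt6 and Nnmt and above them for Sirt5.

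Nnmt, the nicotinamide methyltransferase, stood at 7.84, 9.06 and 7.87 in WT livers 1, 2 and 3 and at 5.39, 6.78 and 5.71 in KO livers 1, 2 and 3. The highest KO liver was 1.07 below the lowest WT liver, and each group had a high liver, WT 2 and KO 2. The mean went from 8.26 ± 0.69 to 5.96 ± 0.73, a 4.93-fold fall (-2.30 ± 0.42, 95% confidence interval -3.27 to -1.33, adjusted p = 0.00654). The call was kept in all 15 alternative analyses, with differences from -2.71 to -1.79 and adjusted p from 0.000179 to 0.028. A single probe set measured Nnmt, and KO liver 1, at 5.39, lay near background (4.90). Over the 6 arrays, the genes whose levels ran most like those of Nnmt, among 12031 above background, were Mcc (Pearson r = 0.993), Slc12a9 (0.988), Gm10658 (0.988), P3h1 (0.987) and Ppm1l (0.985). This is a description over 6 arrays that fall into 2 groups, and Slc12a9 itself differed by -0.10 ± 0.08 (adjusted p = 0.39) and stood at 0.41 with arrays centred on bacterial controls.

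Nampt, the enzyme that recycles nicotinamide, stood at 7.61, 8.03 and 8.19 in WT and at 7.88, 8.01 and 8.22 in KO. The groups overlapped and the means were 7.94 ± 0.30 and 8.04 ± 0.17 (0.09 ± 0.16, adjusted p = 0.694). The 95% confidence interval of the KO to WT ratio ran from 0.823 to 1.39. Its other 2 probe sets, dimmer ones, differed by 0.18 and 0.03 and did not pass. The 10 measured clock genes were read beside it because CLOCK with BMAL1 (Arntl) is known to drive Nampt in a daily rhythm. Their median difference was -0.23, with 1 called higher and 1 lower, against 14.2% and 9.75% of all genes. Clock was called higher (0.60 ± 0.18, adjusted p = 0.0423) and Cry2, a repressor of the pair, lower (-0.80 ± 0.13, adjusted p = 0.0034). Clock lost its call without WT liver 2 or 3, without KO liver 1 or 2, with quantile normalization (adjusted p = 0.0738) and when its probe sets were averaged (0.194), and Cry2 only when arrays were centred on the spiked bacterial controls (control centring, 0.0856).

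Clock output varied widely inside the groups. Dbp, a direct output of the clock, stood at 5.33, 10.89 and 11.21 in WT and at 8.0, 8.52 and 10.30 in KO. Arntl ran the other way, at 9.02, 6.29 and 5.56 in WT and 8.31, 8.36 and 6.74 in KO. WT liver 1, lowest in Nampt and in Dbp, was highest in Arntl. Neither gene passed with all livers (adjusted p = 0.927 and 0.488), but without WT liver 1 Dbp was called lower (-2.11, adjusted p = 0.0457) and Arntl higher (1.88, adjusted p = 0.0359). Over the 6 livers Nampt followed Dbp with a Pearson r of 0.922 (exact permutation p = 0.0139) and a Spearman rho of 0.829 (exact permutation p = 0.0583). Over the 10 clock genes compared with Nampt the adjusted values were 0.0799 and 0.171 (Benjamini-Hochberg over exact permutation p), so the relation did not pass the correction. Without WT livers 1 and 3, the 2 farthest from the median of Dbp, r over the remaining 4 livers was 0.674. Dbp had the largest absolute r of the 10 genes. Leaving out each gene's own 2 farthest livers took Nr1d2 from 0.885 to 0.871 and Per3 from 0.862 to 0.993. It took Cry1 from -0.878 to 0.124 and Nr1d1 from 0.737 to 0.0074, so the outcome depended on the gene. Dbp and Arntl were singled out after their values were seen, and the labels used here give no time of day. The part of clock phase in the Nampt values was not tested.

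**Figure D2:**
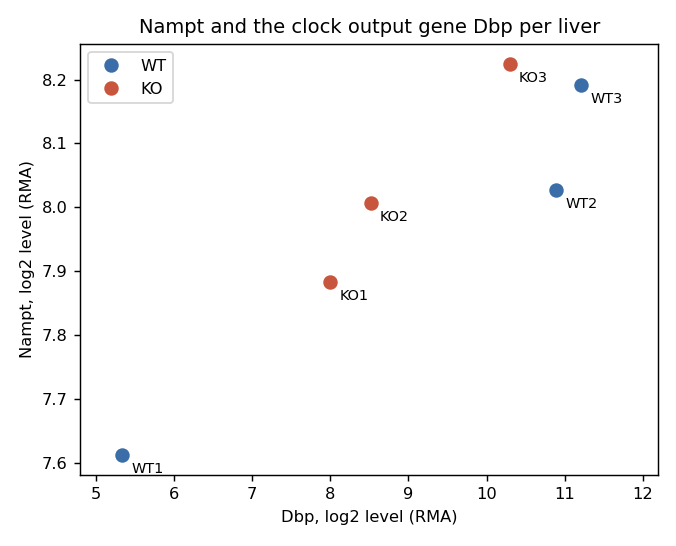
Log2 RMA level of Nampt against that of the clock output gene Dbp in each liver, WT in blue and KO in red. WT liver 1 is lowest in both (5.33 in Dbp, 7.61 in Nampt) and the WT and KO livers overlap along both axes.

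Nmnat1, the nuclear enzyme that completes NAD, stood at 7.82, 7.93 and 7.92 in WT and at 7.95, 7.94 and 7.83 in KO. The groups overlapped (0.02 ± 0.09, adjusted p = 0.897), and the 95% confidence interval of the ratio was 0.878 to 1.17. A dimmer probe set of the gene differed by 0.23 ± 0.14 and did not pass. The brighter one is of the kind that can share probes with other transcripts.

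Of the 3 mitochondrial sirtuins 1 was called, Sirt3, against 24.0% of all genes. Sirt3, the main deacetylase of the mitochondrial matrix, stood at 9.89, 9.82 and 9.83 in WT and at 9.47, 9.11 and 9.51 in KO. All KO livers were below all WT livers, KO 2 the furthest. The mean went from 9.85 ± 0.04 to 9.37 ± 0.22, a 1.40-fold fall (-0.48 ± 0.12, 95% confidence interval -0.76 to -0.20, adjusted p = 0.0248, from 0.0129 to 0.837 over 15 alternatives). The call was lost without WT liver 1 or 2 (adjusted p = 0.0586 and 0.0541) or without KO liver 1 or 2 (0.0522 and 0.0658). Sirt5, which removes succinyl and malonyl groups, stood at 9.76, 9.69 and 9.64 in WT and at 9.92, 9.88 and 9.82 in KO. The groups did not overlap, by a margin of 0.06, and the difference did not pass (0.18 ± 0.09, adjusted p = 0.174). Another probe set of Sirt5 differed by 0.06 ± 0.09, and the remaining one lay below background on all arrays. Sirt4, an inhibitor of glutamate dehydrogenase, stood at 7.41, 7.40 and 6.80 in WT and at 7.55, 7.08 and 7.42 in KO, with overlap (0.15 ± 0.19, adjusted p = 0.596).

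None of the 3 nuclear sirtuins was called, against 24.0% of all genes. Sirt1, the deacetylase of PGC-1alpha and FOXO factors, stood at 6.56, 6.50 and 6.28 in WT and at 6.69, 6.71 and 6.42 in KO, with overlap (0.16 ± 0.12, adjusted p = 0.367). Its ratio had a 95% confidence interval of 0.919 to 1.35. Sirt6, a chromatin deacetylase, stood at 6.25, 6.32 and 6.51 in WT and at 6.08, 6.09 and 6.10 in KO. All KO livers were lower, yet the difference missed the threshold (-0.27 ± 0.10, adjusted p = 0.0794), and in the 15 alternatives its adjusted p ran from 0.0555 to 0.194. Sirt7, the nucleolar sirtuin, stood at 9.57, 9.51 and 9.11 in WT and at 9.26, 9.17 and 9.18 in KO. WT liver 3 lay below every KO liver (-0.19 ± 0.13, adjusted p = 0.317), and without it Sirt7 was called lower (-0.34, adjusted p = 0.0377). Sirt2, the mainly cytosolic sirtuin, stood at 9.08, 9.07 and 9.16 in WT and at 9.08, 8.89 and 8.94 in KO, with overlap (-0.13 ± 0.09, adjusted p = 0.337).

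Directions of small differences depended on how the arrays were scaled. The probe sets for spiked bacterial transcripts were dimmer on KO arrays, at 9.87 ± 0.05 in WT and 9.36 ± 0.06 in KO over 38 probe sets (exact two-sided permutation p = 0.1, the smallest that 3 against 3 arrays allow). Centring the arrays on them adds 0.51 to every difference and moves the median over all genes from -0.05 to 0.46. Of all genes, 2589 were called higher and 1774 lower as deposited, 2266 and 2235 with array median centring, 2120 and 1953 with quantile normalization, and 12970 and 409 with control centring. On that scale Nnmt was still lower (-1.79, adjusted p = 0.00521), Sirt3 stood at 0.03 (adjusted p = 0.837), and Sirt1, Sirt2, Sirt4, Sirt5, Nampt and Nmnat1 passed as higher (0.67, 0.38, 0.66, 0.69, 0.61 and 0.53). Differences between 2 genes of the same array do not depend on how arrays are centred. Sirt3 minus Sirt5 was 0.13, 0.13 and 0.19 in WT and -0.45, -0.77 and -0.31 in KO, without overlap, and Nnmt minus Nampt moved by -2.40 (for each, exact two-sided permutation p = 0.1, the smallest possible). These pairs were chosen after the values were seen. Sirt3 lay wholly lower in KO and Sirt5 wholly higher, and Nnmt separated the groups by more than Nampt varied. The separation of both pairs was thus fixed beforehand and adds no support for the single-gene results.

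**Figure D3:**
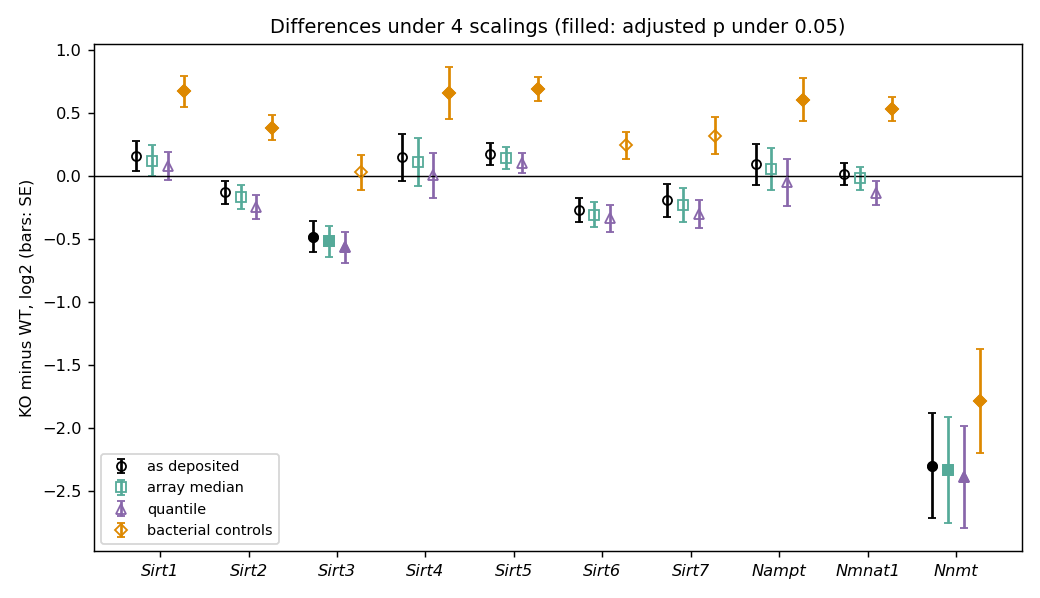
KO minus WT on the log2 scale with its SE for the 10 genes, as deposited, centred on the array median, after quantile normalization, and centred on bacterial controls; filled symbols have an adjusted p under 0.05. Nnmt is low under all 4 scalings (-2.30 as deposited, -1.79 on the controls), whereas Sirt3 goes from -0.48 to 0.03.

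The promoter windows of 9 of the 10 genes, from 250 bases before to 50 after a RefSeq start (GRCm38.p6), were matched by symbol, 12 windows in all, and Nnmt had no entry. They are given for 3 genes, 5′ to 3′ on the gene's strand: Sirt3 as the sirtuin that was called, and Nampt and Sirt1 as genes often discussed with the clock. Capitals mark CACGTG, the E-box bound by CLOCK with BMAL1, which reads the same on both strands. The Sirt3 window lies at chr7:140882260-140882559, minus strand, the Nampt window at chr12:32820085-32820384, plus strand, and the Sirt1 window at chr10:63338986-63339285, minus strand.
Sirt3: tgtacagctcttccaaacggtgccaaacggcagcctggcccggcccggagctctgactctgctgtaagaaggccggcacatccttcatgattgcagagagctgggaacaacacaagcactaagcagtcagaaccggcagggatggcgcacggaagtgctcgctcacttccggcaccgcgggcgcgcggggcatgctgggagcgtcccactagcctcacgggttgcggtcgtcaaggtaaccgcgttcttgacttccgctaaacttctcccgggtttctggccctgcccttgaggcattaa
Nampt: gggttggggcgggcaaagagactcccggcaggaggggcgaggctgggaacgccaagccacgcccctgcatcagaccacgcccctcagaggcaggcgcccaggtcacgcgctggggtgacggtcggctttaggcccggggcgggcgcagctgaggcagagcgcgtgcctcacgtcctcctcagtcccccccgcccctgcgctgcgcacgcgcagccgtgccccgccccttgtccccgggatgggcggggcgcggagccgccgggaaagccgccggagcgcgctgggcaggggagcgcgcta
Sirt1: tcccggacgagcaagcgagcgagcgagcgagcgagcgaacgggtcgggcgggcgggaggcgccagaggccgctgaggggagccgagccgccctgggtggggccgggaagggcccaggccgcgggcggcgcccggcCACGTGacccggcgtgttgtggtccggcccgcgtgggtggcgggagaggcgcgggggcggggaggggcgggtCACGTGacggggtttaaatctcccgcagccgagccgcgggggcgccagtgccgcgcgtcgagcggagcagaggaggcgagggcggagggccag
The Sirt1 window held 2 matches, and the windows of the other 8 genes held 0, against 7.15% of 32851 windows with at least 1 match. The core AAGGTCA of the element bound by estrogen-related receptors, partners of PGC-1alpha, was searched on both strands because Ppargc1a fell. It was found in the Sirt5 window only, and no other member's window held it, those of Sirt3 included. Of all windows 4.72% held it. The motifs were chosen after the values were seen, and a match is a description of the letters only.

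Start sites on the opposite strand lay within 1000 bases of a member's start for 4 measured neighbours. The start of Psmd13, a subunit of the proteasome lid, diverges from that of Sirt3 at a distance of 85 bases, so the Sirt3 window above is part of the stretch between and around them. Psmd13 stood at 9.17, 9.12 and 9.09 in WT and at 9.56, 9.54 and 9.42 in KO, without overlap, and was called higher (0.39 ± 0.09, adjusted p = 0.0169), a call lost when its probe sets were averaged (0.14, adjusted p = 0.207) and without KO liver 1 (0.0756) or 2 (0.0689). Sirt3 minus Psmd13 on the same array was 0.72, 0.70 and 0.74 in WT and -0.09, -0.43 and 0.09 in KO, a move of -0.87 that does not depend on array centring. Its exact two-sided permutation p of 0.1, the smallest possible, was fixed beforehand, as Sirt3 lay wholly lower in KO and Psmd13 wholly higher. The difference is a description and adds no support for either gene. Lzic, which diverges from Nmnat1, was also called higher (0.55 ± 0.12, adjusted p = 0.0161), a call lost with quantile normalization (0.0562) and without KO liver 2 (0.069) or 3 (0.0578), while Nmnat1 differed by 0.02. Nfkbib beside Sirt2 and Ankrd24 beside Sirt6 did not pass (0.21 and -0.14). The neighbours were looked up after the values of the members were seen.

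Beyond the members, genes of the route from tryptophan to NAD fell. All 6 measured genes of that list were called lower, against 9.75% of all genes, and Acmsd was not analysed here. Their median was -1.21 against -0.05 over all genes. The list was chosen with earlier results of these data known, so the count is a description. Ido2, which opens the indole ring, fell 3.52-fold (-1.81 ± 0.22, adjusted p = 0.00098), Haao, which makes the precursor of quinolinate, 3.38-fold (-1.75 ± 0.17), the hydroxylase Kmo 2.49-fold and kynureninase, Kynu, 2.15-fold. Ido2 stood at 5.76, 5.62 and 5.07 in KO, near background (4.90), so the size of its fall is less certain. A second probe set of Kynu was called in the opposite direction, higher in KO (limma over all probe sets, adjusted p = 0.0223). It lay below background in all WT livers and in KO liver 2, so the size of its difference is not given. The mean of both probe sets stood at 0.06 (adjusted p = 0.785). Tdo2, the liver's tryptophan dioxygenase, and Afmid, which hydrolyses formylkynurenine, fell by 0.38 and 1.05, Tdo2 standing at 0.13 with control centring. Tdo2 lost its call in 6 of the 15 alternatives, which besides control centring were the replicate number as a block (adjusted p = 0.078) and the fits without WT liver 2 or 3 or KO liver 2 or 3 (0.0814 to 0.147). Qprt, which joins this route to NAD synthesis, fell 1.76-fold, from 10.99 ± 0.14 to 10.18 ± 0.08 (-0.81 ± 0.10, adjusted p = 0.00132).

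Of 11 other genes of NAD and NADP synthesis and salvage, Qprt included, 1 was higher and 3 lower, with a median of -0.01. Over all genes 14.2% were higher and 9.75% lower. Nnt, the mitochondrial transhydrogenase that makes NADPH from NADH, rose 1.66-fold (0.73 ± 0.15, adjusted p = 0.0106). Its probe set is of a kind that can share probes with other transcripts, and the mean of the gene's probe sets differed by less (0.42, adjusted p = 0.0372). Pnp, which splits nicotinamide riboside among other nucleosides, and Nadk2, the mitochondrial NAD kinase, were called lower (-0.47 ± 0.14, adjusted p = 0.0446, and -0.32 ± 0.09, adjusted p = 0.0416). In the 15 alternatives the adjusted p ran from 0.0230 to 0.762 for Pnp and from 0.0154 to 0.143 for Nadk2. Both turned sign with control centring, and both lost the call without WT liver 1 or 2 or any 1 KO liver. Pnp also lost it with all probe sets fitted together (0.0506), and Nadk2 with the replicate number as a block (0.0641). Naprt, which starts NAD synthesis from nicotinic acid, stood at 10.22 ± 0.16 in WT and 9.77 ± 0.23 in KO (adjusted p = 0.0512) and passed as lower in 6 of the 15 alternatives (0.0307 to 0.0477). Nmrk1, the nicotinamide riboside kinase, Nadsyn1, the NAD synthetase, and Nmnat3 differed by 0.33, 0.05 and 0.37 and did not pass, nor did the cytosolic kinase Nadk (0.27 ± 0.09, adjusted p = 0.0619). Of the 15 alternatives Nadk passed as higher in 6 (adjusted p from 0.000294 to 0.0489), Nmnat3 in 3 (control centring, array weights and without KO liver 3), and Nmrk1 and Nadsyn1 in 1, control centring. Nmnat2 and Nmrk2 lay below background on all arrays. Naprt, Nmrk1, Nadsyn1, Nmnat3, Nadk, Tdo2 and Afmid, and Aox1, Parp1 and Parp2 in what follows, were named after their values were seen.

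**Figure D4:**
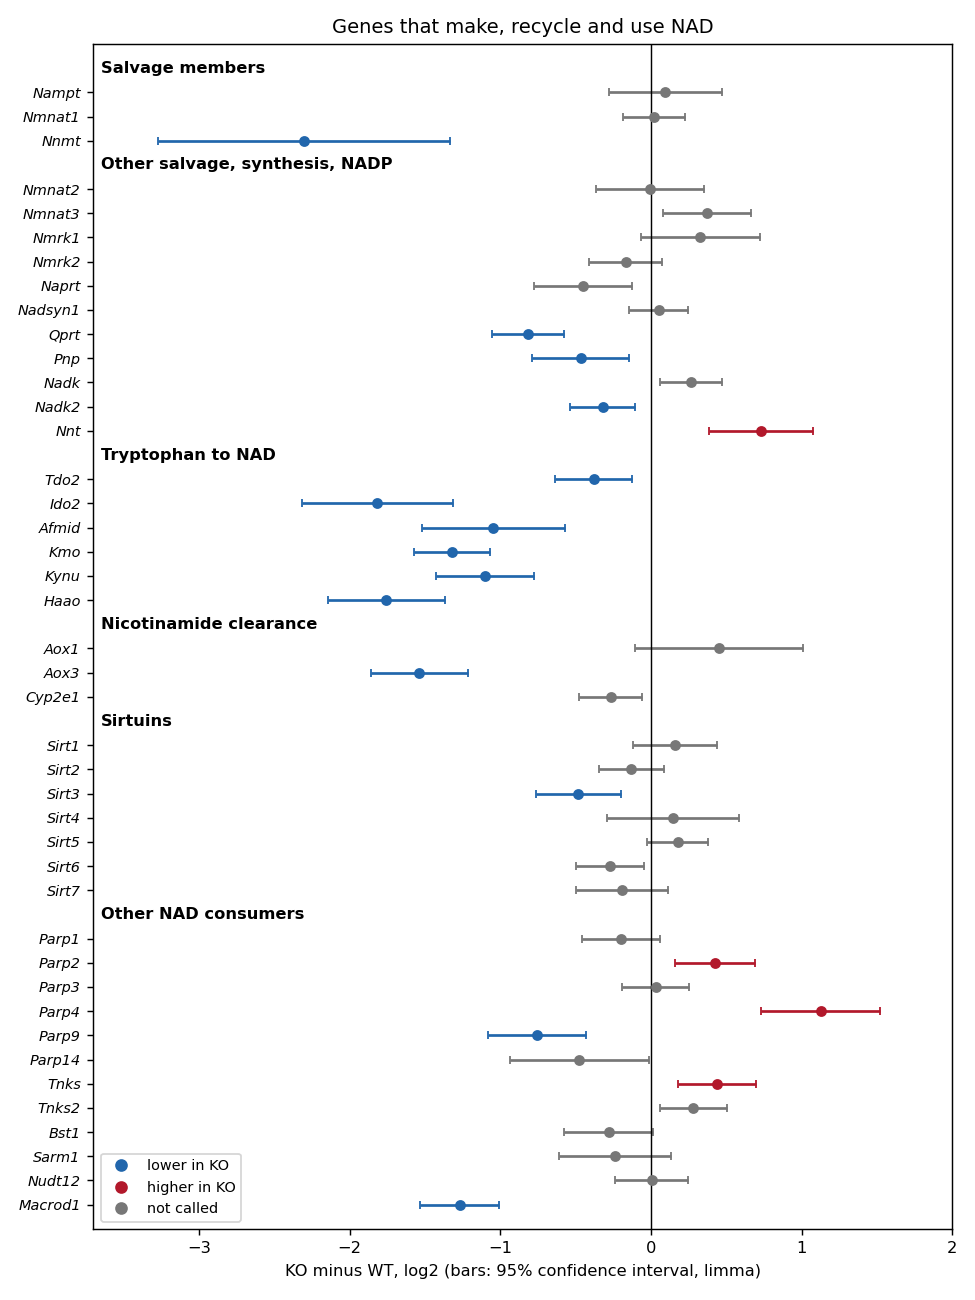
KO minus WT on the log2 scale with its 95% confidence interval (limma) for the measured genes that make, recycle and use NAD, by list; blue is called lower, red higher and grey not called. The tryptophan genes lie left of 0 (Tdo2 at -0.38 to Ido2 at -1.81), Nampt and Nmnat1 straddle 0, and Nnmt is the lowest gene at -2.30.

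Of 3 further genes that oxidise nicotinamide or its methylated form 1 was lower and 0 higher, against 9.75% and 14.2% of all genes. Aox3, a liver aldehyde oxidase, fell 2.90-fold, from 11.94 ± 0.20 to 10.40 ± 0.20 (-1.54 ± 0.14, adjusted p = 0.00027). Its relative Aox1 differed by 0.45 ± 0.24 with 1 high KO liver, at 10.94 against 10.03 and 9.97 in the others (adjusted p = 0.208), and Cyp2e1 differed by -0.27 ± 0.09 (adjusted p = 0.0688), passing as lower with trend and robust moderation (0.012) and as higher with control centring (0.0463).

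Among 12 measured genes of other NAD users and ADP-ribose handling 3 were higher and 2 lower, a median of -0.10. Bst1 lay below background on all arrays. Over all genes 14.2% were higher and 9.75% lower, so these counts are not read as an excess. Parp4, the vault-associated member of the poly(ADP-ribose) polymerase family, rose from 5.12 ± 0.34 to 6.25 ± 0.15 (1.13 ± 0.17, adjusted p = 0.00293), with 1 WT liver below background. Tankyrase, Tnks, and Parp2, a polymerase of DNA repair, rose by 0.44 ± 0.11 and 0.42 ± 0.12. Macrod1, which removes ADP-ribose and does not itself use NAD, fell 2.41-fold (-1.27 ± 0.11, adjusted p = 0.000254), and Parp9 fell 1.69-fold. Parp1, the main polymerase of the nucleus, differed by -0.20 ± 0.11 (adjusted p = 0.226). Tnks lost its call without any 1 KO liver, with quantile normalization (0.0598) and when its probe sets were averaged (adjusted p = 0.376), Parp2 with quantile normalization (0.101) and without WT liver 2 or 3 or any 1 KO liver (0.0667 to 0.114), and Parp9 with control centring (0.193). Cd38 was not analysed here.

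Of 3 SIRT1 regulators, with a median of 0.12, Rps19bp1, an activator, was called higher (0.35 ± 0.10, adjusted p = 0.0401), with adjusted p of 0.00017 to 0.144 in the 15 alternatives. That call was lost with array median centring (0.0571), quantile normalization (0.136) or the replicate number as a block (0.0711), and without WT liver 1 or 2 or KO liver 1 or 2. Of 11 genes of histone deacetylases that do not use NAD 2 were higher and 0 lower, with a median of -0.0044. Hdac9 lay below background on all arrays. Over all genes 14.2% were higher and 9.75% lower, so the counts of both lists are not read as an excess. Hdac2 rose 1.64-fold (0.72 ± 0.11, adjusted p = 0.00345). Its probe set is of the kind that can share probes with other transcripts. The mean of the gene's probe sets differed by 0.52 (adjusted p = 0.0126). Hdac8 rose by 0.69 ± 0.13, with 1 WT liver below background.

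Transcripts of proteins that sirtuins act on went both ways. A transcript says nothing of the acetylation of its protein. Of 11 measured genes for substrates of nuclear sirtuins 2 were higher and 4 lower, with a median of -0.17. Over all genes 14.2% were higher and 9.75% lower. Ppargc1a, the coactivator PGC-1alpha, fell 3.30-fold, Srebf1 2.18-fold and Foxo3 1.66-fold, and Hif1a rose 1.61-fold. Ppargc1a stood at 5.22, 5.76 and 5.52 in KO, near background (4.90), so the size of its fall is less certain. The other called genes were Nr1h4, the bile acid receptor, which rose by 0.66 ± 0.12, and Stat3, which fell by 0.50 and lost its call in 5 of the 15 alternatives. Foxo3 lost its call with control centring (adjusted p = 0.204) and Hif1a when its probe sets were averaged (0.0804). Of 12 measured genes for substrates of mitochondrial sirtuins 3 were higher and 2 lower, with a median of 0.10. They stand against the same shares of all genes, and Acss1 among them lay below background on all arrays. Otc, the urea cycle enzyme, fell 4.08-fold, from 12.65 ± 0.04 to 10.63 ± 0.10 (-2.03 ± 0.09, adjusted p = 1.11e-05), and Sdha of complex II fell 1.37-fold. Idh2 and Acadl, the NADP-dependent isocitrate dehydrogenase and the long-chain acyl-CoA dehydrogenase, both known SIRT3 substrates, rose 1.79-fold and 1.72-fold. When the probe sets of each were averaged, their log2 differences went from 0.84 and 0.78 to 0.45 and 0.40, still called. Glud1, the glutamate dehydrogenase that SIRT4 inhibits, was called higher (0.43 ± 0.13, adjusted p = 0.0472) and lost the call in 8 of the 15 alternatives. Sdha stood at 0.06 with control centring (adjusted p = 0.587) and lost its call when its probe sets were averaged (0.0596).

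Markers of the liver's cell types were read beside these results. Their counts stand against 24.0% of all genes called, 14.2% higher and 9.75% lower. Of 6 measured hepatocyte markers 0 were called, with summed linear levels of 92524 to 99114 in WT and 94902 to 99043 in KO. That sum is carried by Alb, Apoa1, Ttr and Cyp2e1, whose group means (13.81 to 14.71) lie near the highest value on the arrays, where a change may not show, and the dimmer Hnf4a differed by 0.11 (adjusted p = 0.514). Of 7 Kupffer and macrophage markers 0 were called (2650 to 5972 and 3507 to 4583). Of 6 endothelial markers Kdr and Clec4g were lower and Lyve1 higher, the latter at least 3.55-fold since all WT livers lay below background, and the sums were 1908 to 2294 in WT and 1500 to 1708 in KO. Of these calls Kdr was lost in 9 of the 15 alternatives and Clec4g in 8, every fit that leaves out 1 liver included for Kdr. Of 6 stellate markers 1, Reln, was lower (sums 1526 to 1651 and 1178 to 1449), and the list's median was -0.10. Reln went from 10.01 to 9.51, while Lrat, Pdgfrb and Col1a1 had differences of 0.31, 0.12 and 0.06 and Des and Acta2 of -0.26 and -0.40, none of which passed. Of 4 cholangiocyte markers Krt19 was lower, with Krt7 below background throughout. The endothelial, stellate and cholangiocyte sums did not overlap between the groups and were lower in KO, as Nnmt and Sirt3 were. The stellate sum was lower mainly through Reln, and the cholangiocyte sum (144 to 176 in WT, 125 to 136 in KO) comes from dim markers. The brightest endothelial marker, Clec4g, differed by -0.19 when its probe sets were averaged and was not called (limma, adjusted p = 0.109). Over single genes, 44.8% did not overlap, in either direction. The part of these cell types in the Nnmt and Sirt3 results was not tested. Krt19 lost its call in 7 of 14 alternatives, and Kdr, Clec4g, Reln and Krt19 turned sign with control centring. Of 5 lymphocyte and 4 neutrophil markers 0 were called, and Cidec was the only called one of 4 adipocyte markers (adjusted p = 0.00146), with both group means below background, and with Adipoq and Lep below background on all arrays.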

How the data were processed

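Per the labels' protocols, total RNA was extracted from liver with Trizol, biotin-labelled and hybridised to Affymetrix mouse arrays. The deposited values are log2 levels, 1 for each probe set. The submitters' processing notes name RMA and no version of it, and the log2 scale was read from the values (2.15 to 14.9). RMA draws the arrays towards one distribution, so levels are relative.

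Of 45101 probe sets, 64 controls were set aside, 34945 had 1 symbol in the platform annotation of the array, 932 several, and 9160 were not listed. Each of 18193 genes took its probe set of highest mean. Besides Nmnat1, Nnt and Hdac2, probe sets that can share probes with other transcripts include those of Lzic, Sdha, Dbp, Nfkbib, Hnf4a and Acta2. All 10 members kept their symbol in the RefSeq gene table of GRCm38.p6. Groups and replicate numbers come from the titles. The fit was limma 3.58.1 in R 4.3.3 (lmFit, eBayes, two-sided, all 6 arrays, no covariate), adjusted by Benjamini-Hochberg over all genes at a threshold of 0.05. The code was also run on simulated data with independent noise for each gene. That simulation held no shift between arrays, so it cannot speak to array scaling. Named genes are the members, the targeted gene, up to 4 called genes of each list with the largest difference (up to 2 where none was called), and the 5 genes most alike to Nnmt. Uncalled markers of cell types are given as counts, except those of stellate cells and Hnf4a, named after their values were seen. The members and lists were chosen with earlier results of these data known. The 15 alternatives were a replicate block, array median, quantile and control centring, a filter on dim genes, the mean of the probe sets, all probe sets together, trend and robust eBayes, array weights, and leaving out each array.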

Additional observations from a re-analysis of the deposited data

How the results depend on the processing

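The number of arrays limits these results: with 3 livers a group, small changes can be missed. The titles number the livers 1 to 3 in each group, but same-numbered livers deviated together only weakly (r = 0.10, -0.02 and 0.11), and 3 of 6 arrays correlated best with their own number. With a replicate block 2 of the 10 members were called, 0 higher and 2 lower, and 4089 of all genes (2471 higher, 1618 lower). The block ended the calls of Nadk2 (adjusted p = 0.0641), Rps19bp1 (0.0711), Kdr (0.0755), Krt19 (0.0767) and Tdo2 (0.078).

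Centring on the bacterial controls gave 7 members called, 6 higher and 1 lower, against 2, 0 and 2 as deposited, and 13379 genes called, 12970 higher and 409 lower, against 4363, 2589 and 1774. It turned the differences of Sirt2 (0.38), Sirt3 (0.032), Sirt6 (0.24), Sirt7 (0.32), Pnp (0.047), Nadk2 (0.19), Sdha (0.058), Clec4g (0.093), Kdr (0.20), Reln (0.016), Krt19 (0.0024), Tdo2 (0.13), Naprt (0.060), Ankrd24 (0.37), Dbp (0.31), Parp1 (0.31) and Stat3 (0.013), and those of Cyp2e1 (0.25), Des (0.25), Acta2 (0.11), Slc12a9 (0.41), P3h1 (0.27) and Ppm1l (0.022), since it adds the same amount to each. Centring on the array median turned Nmnat1 to -0.019, and gave 2266 higher and 2235 lower genes. Quantile normalization turned Nmnat1 to -0.14, Nampt to -0.051 and Nadsyn1 to -0.10 and Pdgfrb to -0.0027, and gave 2120 higher and 1953 lower genes. The mean of the probe sets turned Kynu to 0.061 and Pdgfrb to -0.048. Over the 74 genes followed through the alternatives, 1108 values in all, 107 lost a call, 43 gained one and 43 changed sign. Of those that changed sign 12 also lost a call and 5 also gained one, and 932 values kept direction and call.

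Leaving out 1 array left 1 to 3 members called, all lower, and 2385 to 4103 genes called (1497 to 2424 higher, 888 to 1679 lower), the lowest without KO replicate 2 and KO replicate 1 (2385 and 2588). Those fits test fewer arrays, and the cause of the drop was otherwise not tested. Without WT replicate 1, Nampt stood at -0.071 and Nmnat1 at -0.019. Without WT replicate 3, Sirt4 stood at -0.053. Without KO replicate 1, Nmnat1 stood at -0.0054. Without 1 array Sirt4 ran from -0.053 to 0.28, Nampt from -0.071 to 0.22, Nmnat1 from -0.019 to 0.057, Lrat from -0.0082 to 0.50, Pdgfrb from -0.030 to 0.29, Col1a1 from -0.079 to 0.22 and Dbp from -2.11 to 0.83. Dbp stood at 0.67 and 0.83 without WT replicates 2 and 3, and at 0.26 and 0.0052 without KO replicates 1 and 2. Apart from Nnmt, which was called in all 15 alternatives, and Sirt3, no member was called as deposited.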
